A study of Mus musculus with 12 samples.

Results

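Cd274, Pdcd1lg2, Cd40, Cd80 and Cd86 encode surface proteins through which antigen-presenting cells and tissue cells restrain or help T cells. These 5 genes of the 19938 measured were taken by symbol, each on 1 probe set, and their levels were read on 12 liver arrays. They had been picked with their levels in these livers already known, so their own values are given as a description without a test. Cd80 had 1 other probe set and the remaining 4 genes had none; of its 2 probe sets, the one that averaged highest on the 12 arrays was used.

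The livers came from male mice on the C57Bl/6 background, in 3 groups of 4. One group was wild type (WT) and untreated, one was WT and received lipopolysaccharide (LPS, the endotoxin of Gram-negative bacteria) at 1 µg/kg, and one was homozygous for the S534A allele and received the same dose. S534A puts alanine in place of a serine in the NF-kB subunit p65, the product of Rela; the change was knocked in to the endogenous gene in PTL1 embryonic stem cells (2 clones), the selection cassette was removed with FLPe, and the line was backcrossed to C57Bl6/J, so all cells of the animal carry it. No untreated S534A liver was analysed here, so a genotype difference in the response to LPS and one present beforehand cannot be told apart. The mice's age and the time from LPS to tissue collection are not stated in the labels, and nothing in the labels states that each liver is from its own animal, so the spread between samples may be partly technical.

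PD-L1 (from Cd274) and PD-L2 (from Pdcd1lg2) bind the inhibitory receptor PD-1 on T cells. CD80 and CD86, the classical B7 proteins, bind CD28, which stimulates, and CTLA-4, which inhibits. CD40, a receptor of the TNF receptor superfamily on B cells, macrophages, dendritic cells and endothelium, is engaged by CD40 ligand on T cells and signals through TRAF adaptors to both NF-kB pathways. In liver, Kupffer cells and sinusoidal endothelium can present antigen, and PD-L1 is a well-known target of interferon signalling through IRF1.

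The values are log2 signals per probe set, from 3.43 to 14.48 over the whole table, and 1 unit is a doubling of signal. Array medians lay between 6.15 and 6.32, and arrays of 1 group correlated at 0.983 to 0.996. The hepatocyte gene Alb read 14.02 in WT LPS and 14.04 in S534A LPS livers, within 0.04 of untreated WT and near the top of the range. Rela read 9.96, 11.11 and 11.20 in the same order, and its probe set cannot see the substitution. Exocrine pancreas transcripts had earlier been seen on 3 arrays (replicates 2 and 3 of WT LPS, replicate 3 of S534A LPS), and where a call on 1 of the 5 genes, a pathway gene or a neighbour named here was lost or gained without these, that is stated. Titles of untreated and treated samples follow different patterns. Were the 2 sets processed on separate occasions, occasion and treatment cannot be told apart.

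Cd274 had the largest difference of the 5 genes. Its probe set (10462390) read 6.70, 6.58, 6.86 and 6.95 on the 4 untreated WT arrays, a mean of 6.77 ± 0.16 (SD, n = 4). The WT LPS arrays read 10.74, 10.48, 10.30 and 10.28, a mean of 10.45 ± 0.21. The S534A LPS arrays read 11.27, 11.40, 11.43 and 11.36, a mean of 11.37 ± 0.07. The 3 groups did not overlap: every LPS array lay above every untreated array, and every S534A array above every WT LPS array. The WT LPS level was 12.8-fold that of untreated WT (log2 difference 3.68 ± 0.11, SE; 95% interval 3.45 to 3.91). The S534A LPS level was 24.2-fold that of untreated WT (4.60 ± 0.11) and 1.88-fold that of WT LPS (0.91 ± 0.11; 95% interval 0.69 to 1.14). Leaving out the 3 arrays that hold pancreas transcripts put that genotype difference at 0.83.

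Pdcd1lg2, the tandem neighbour of Cd274, read close to the same level in all 3 groups. Its probe set (10462398) gave 4.88, 4.92, 4.96 and 4.87 in untreated WT livers, a mean of 4.91 ± 0.04 (SD, n = 4). WT LPS livers gave 4.92, 5.21, 4.93 and 5.12 (5.04 ± 0.14), and S534A LPS livers 5.05, 4.96, 5.03 and 5.01 (5.01 ± 0.04). WT LPS livers overlapped with both other groups, and the lowest S534A value equalled the highest untreated one at this rounding. The difference was 0.14 ± 0.07 (SE; 95% interval -0.01 to 0.29) for WT LPS against untreated and -0.03 ± 0.07 (-0.18 to 0.12) for S534A against WT after LPS. The probe set lay below 6.71, the median of all gene values, on each of the 12 arrays. At such a level a probe set may respond little to a change in the transcript, so these intervals describe the signal and not the transcript itself.

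The 2 genes lie side by side on chromosome 19. On GRCm38.p6, Cd274 spans chr19:29362107-29388095 and Pdcd1lg2 chr19:29410919-29472927, with 22.8 kb between them. Their promoter windows, from 250 bases before to 50 after the annotated start of a transcript, are shown because the adjacent genes gave such different readings. Both are RefSeq sequences of GRCm38.p6, plus strand, at chr19:29367188-29367487 for Cd274 and chr19:29410669-29410968 for Pdcd1lg2. Capitals mark matches to the motifs searched.
Cd274: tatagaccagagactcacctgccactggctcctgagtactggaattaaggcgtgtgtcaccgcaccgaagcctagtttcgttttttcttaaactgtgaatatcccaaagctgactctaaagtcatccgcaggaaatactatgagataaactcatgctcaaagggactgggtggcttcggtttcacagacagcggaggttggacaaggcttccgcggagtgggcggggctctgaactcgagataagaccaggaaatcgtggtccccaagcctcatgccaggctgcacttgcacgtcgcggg
Pdcd1lg2: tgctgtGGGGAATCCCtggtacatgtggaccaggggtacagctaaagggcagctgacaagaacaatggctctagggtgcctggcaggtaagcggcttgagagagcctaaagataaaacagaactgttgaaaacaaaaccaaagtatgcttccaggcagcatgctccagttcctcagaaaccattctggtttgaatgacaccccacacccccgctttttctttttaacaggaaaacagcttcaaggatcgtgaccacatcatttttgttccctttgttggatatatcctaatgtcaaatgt

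Each window was searched on both strands for the interferon-stimulated response element (GAAA, any 2 bases, GAAA), the gamma-activated site TTCNNNGAA and the NF-kB (kappaB) consensus. The Pdcd1lg2 window held 1 kappaB match, GGGGAATCCC, which begins at position -244 from the start site, and it overlapped no other motif. The Cd274 window and the Cd80 window (chr16:38458683-38458982) held no match to any of the 3. Among all 32851 promoter windows of the same length, 4.51% held a kappaB match, 3.44% the response element and 8.30% the gamma-activated site. A match is a string of letters, not a measured binding site, and the window covers only the stretch around 1 start.

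Cd40, on chromosome 2 (chr2:165055614-165071654), had the second-largest difference. Its probe set (10478678) read 7.15, 7.12, 7.16 and 7.05 in untreated WT livers, a mean of 7.12 ± 0.05 (SD, n = 4). WT LPS livers read 9.04, 8.64, 8.60 and 8.78 (8.76 ± 0.20), and S534A LPS livers 9.34, 9.29, 9.38 and 9.15 (9.29 ± 0.10). Here too the 3 groups were fully separated, with WT LPS replicate 1 only just below the lowest S534A array. The level after LPS was 3.13-fold that of untreated WT in WT mice (log2 difference 1.64 ± 0.09, SE; 95% interval 1.45 to 1.84) and 4.50-fold in S534A mice (2.17 ± 0.09). S534A LPS livers read 1.44-fold the WT LPS level (0.53 ± 0.09; 0.33 to 0.72). Without the 3 arrays with pancreas transcripts that genotype difference was 0.35.

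**Figure D1:**
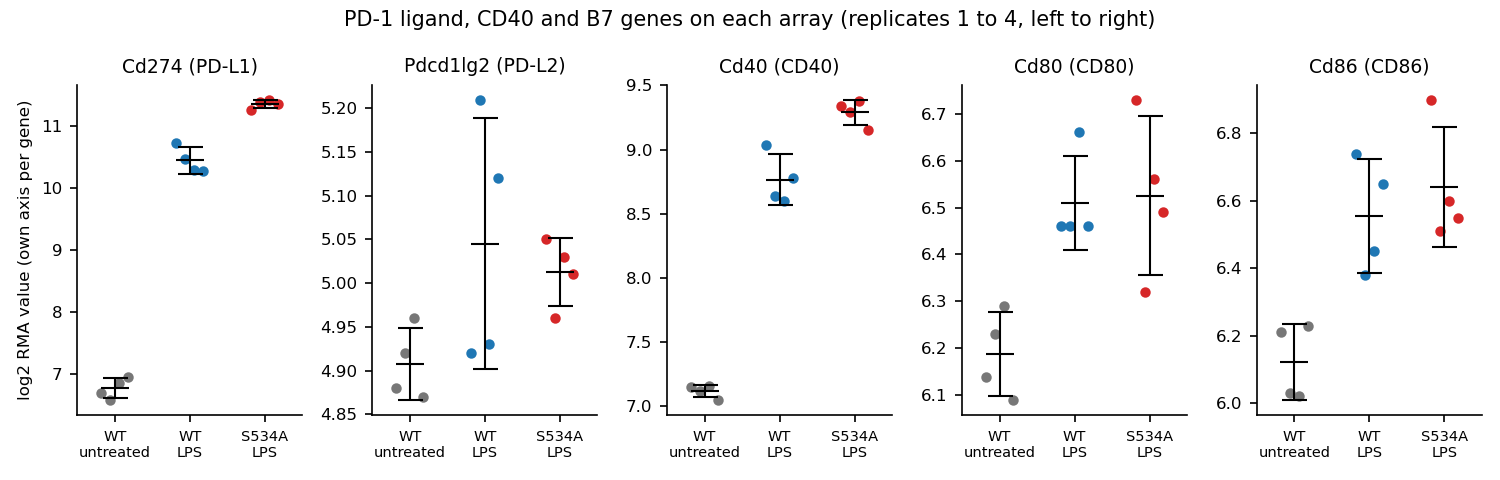
Log2 RMA value of each gene on every array, 1 panel per gene with its own vertical axis; points are replicates 1 to 4 from left to right and black bars the mean ± SD of 4 arrays. Cd274 and Cd40 separate all 3 groups, Cd80 and Cd86 separate the LPS groups from untreated WT only, and Pdcd1lg2 spans 4.87 to 5.21 over all 12 arrays.

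The B7 genes Cd80 and Cd86 read modestly higher after LPS and about alike in both genotypes. They lie 1.79 Mb apart on chromosome 16 (Cd80 at chr16:38457430-38495958, Cd86 at chr16:36568956-36666158). Cd86 (probe set 10439312) read 6.21, 6.03, 6.02 and 6.23 in untreated WT livers, a mean of 6.12 ± 0.11 (SD, n = 4). It read 6.74, 6.38, 6.45 and 6.65 in WT LPS livers (6.56 ± 0.17) and 6.90, 6.51, 6.60 and 6.55 in S534A LPS livers (6.64 ± 0.18). All 8 LPS arrays lay above the untreated ones, and the LPS groups overlapped. The WT difference was 1.35-fold (log2 0.43 ± 0.10, SE; 95% interval 0.21 to 0.66) and the S534A one 1.43-fold (0.52 ± 0.10). Between the genotypes after LPS it was 0.09 ± 0.10, with an interval of -0.14 to 0.31.

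Cd80 (probe set 10435712) read 6.14, 6.23, 6.29 and 6.09 in untreated WT livers, a mean of 6.19 ± 0.09 (SD, n = 4). The WT LPS arrays read 6.46, 6.46, 6.66 and 6.46 (6.51 ± 0.10) and the S534A LPS arrays 6.73, 6.32, 6.56 and 6.49 (6.52 ± 0.17). Again the LPS arrays were all above the untreated ones, by a small margin for S534A LPS replicate 2. The difference from untreated WT was 0.32 ± 0.09 (SE; 1.25-fold; 95% interval 0.14 to 0.51) in WT and 0.34 ± 0.09 (1.26-fold) in S534A livers, and between the genotypes 0.01 ± 0.09 (-0.17 to 0.20). The other Cd80 probe set (10435704), which is the one annotated to the RefSeq mRNA, averaged 5.81 ± 0.19, 6.45 ± 0.14 and 6.51 ± 0.16 in the 3 groups. It gave larger differences from untreated WT, 0.64 in WT and 0.70 in S534A livers, and 0.06 between the genotypes. The size of the Cd80 difference therefore depends on the probe set, while both probe sets place the 2 LPS groups close together.

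**Figure D2:**
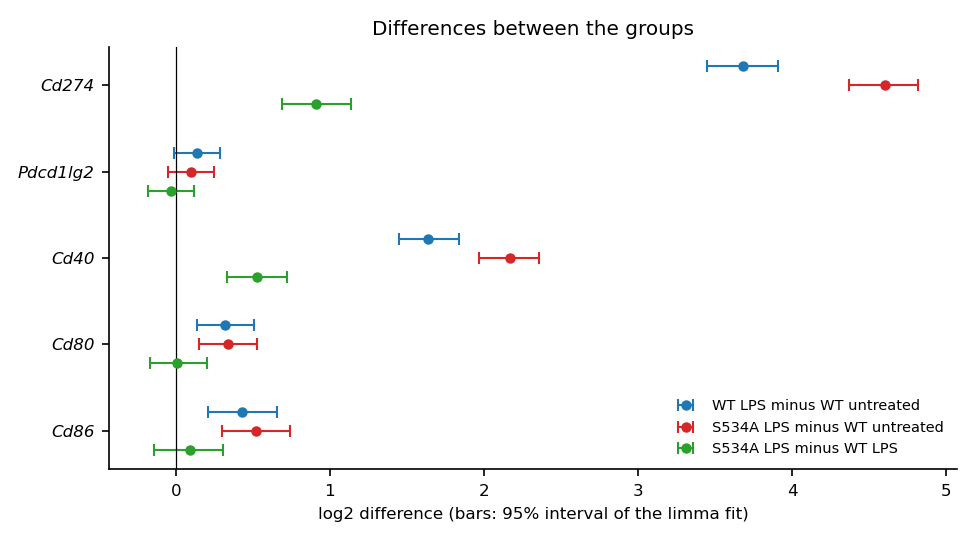
Log2 differences between the groups for the 5 genes, with 95% intervals from the limma fit over all genes; blue and red compare WT LPS and S534A LPS with the same untreated WT livers, green compares the genotypes after LPS. The green intervals span 0.69 to 1.14 for Cd274 and 0.33 to 0.72 for Cd40. They span -0.18 to 0.12 for Pdcd1lg2, -0.17 to 0.20 for Cd80 and -0.14 to 0.31 for Cd86. The genes were chosen on these values, so the intervals are a description and no test.

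In counts, WT LPS against untreated WT called 4 of the 5 genes at an adjusted p under 0.05, where 25.0% of all genes were called, and 4 had LPS arrays wholly above untreated ones, where 9.78% of all genes did. S534A LPS against WT LPS called 2, Cd274 and Cd40, where 0.171% of all genes were called (0.166% as higher), and for 2 the S534A arrays lay wholly above the WT LPS ones, where 3.25% of all genes did. S534A LPS against untreated WT called 4, where 26.9% were called, and 4 did not overlap, where 13.8% of all genes were wholly higher; it shares its untreated arrays with the first comparison. The genes were chosen on these values, so nothing is read from these counts. Of the 5, 2 passed a filter on dim signal (above 6.71, the median of all gene values, on at least 4 arrays): Cd274 and Cd40. Of all 19938 genes, 10323 passed it. Cd274 was above 6.71 on 10 arrays but not on untreated replicates 1 and 2 (6.70 and 6.58), so it passed only through its LPS arrays. Cd40 was above it on all 12. The median difference of the 5 was 0.43, 0.09 and 0.52 in the 3 comparisons, beside 0.02, 0.01 and 0.03 over all genes. Leaving out each array in turn left Cd274 called between the genotypes in 12 of 12 fits and Cd40 in 2 of 12 (those without replicate 4 of untreated WT or replicate 1 of WT LPS). Without the 3 arrays with pancreas transcripts neither was called, and Cd80 lost its call in WT LPS against untreated WT, at a difference of 0.27, which left 3 of the 5 called there. All these fits reuse the arrays on whose values the genes were chosen, so they lend the calls no support.

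The 24 other genes around the 5 loci mostly did not follow them. They are the 3 nearest named protein-coding genes on each side that had a probe set of 1 symbol. After LPS in WT livers 5 of these neighbours rose and 2 fell, where 9.34% and 15.6% of all genes did. Between the genotypes 0 passed in limma at an adjusted p under 0.05, where 0.171% of all genes did; at an unadjusted p under 0.05, Plgrkt (0.0271) and Mmp9 (0.0464) did. Plgrkt, a plasminogen receptor gene whose annotated span overlaps that of Cd274 by 5.2 kb, read 6.96, 6.60, 6.96 and 7.01 in untreated WT, 7.96, 6.98, 7.43 and 7.38 in WT LPS and 7.85, 7.89, 7.84 and 7.78 in S534A LPS livers. It rose by 0.56 ± 0.16 (SE; adjusted p = 0.0225) in WT and by 0.96 ± 0.16 (0.000591) in S534A livers. The WT LPS arrays scattered over nearly a unit, and the WT call was lost without untreated replicate 2 (adjusted p = 0.0673) and in a fit of only the 2 groups compared (0.0694). Rln1, Insl6, Ric1, Ermp1 and Mlana, the other genes of this set around the PD-1 ligand pair, passed in neither LPS comparison. Jak2, 49.0 kb from Cd274, is not among the 3 nearest on its side and so is not counted here. It rose by 1.24 ± 0.11 (SE; adjusted p = 4.41e-06) in WT and by 1.42 ± 0.11 (8.47e-07) in S534A livers.

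Around Cd40, Ncoa5, a nuclear receptor coactivator gene, rose by 0.56 ± 0.12 (SE; adjusted p = 0.00369) and Mmp9, the gelatinase of neutrophils, by 0.27 ± 0.09 (0.0348) in WT livers, while Slc35c2 fell by 0.33 ± 0.06 on the log2 scale (0.000742). The Mmp9 call was lost in 5 of 12 fits with 1 array left out (replicates 2 or 3 of untreated WT, or replicates 2, 3 or 4 of WT LPS; adjusted p up to 0.0807), and without the 3 arrays with pancreas transcripts (0.23; 0.231). Around Cd80, Tmem39a rose by 1.23 ± 0.15 (5.01e-05) and Pla1a, a phospholipase gene, by 0.63 ± 0.07 (4.38e-05), while Timmdc1 fell by 0.34 ± 0.07 (0.0024). None of the 6 measured neighbours of Cd86 passed in any comparison.

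**Figure D3:**
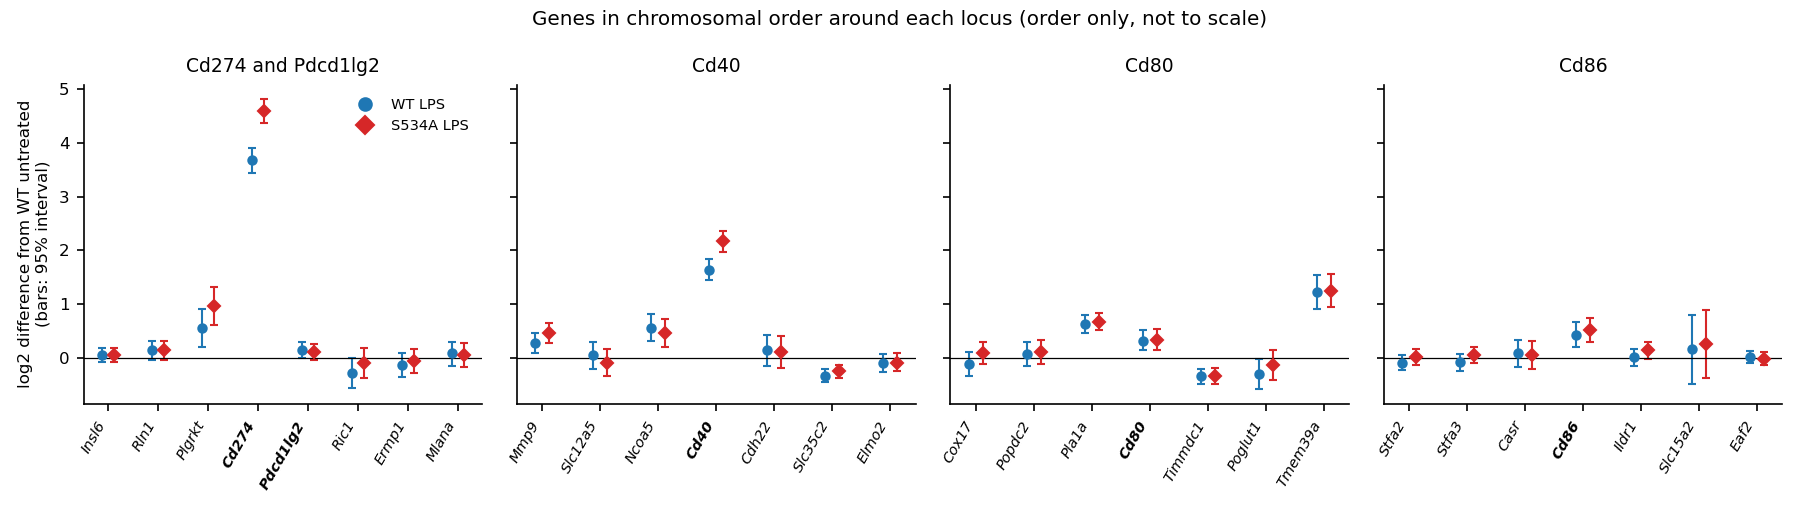
Log2 difference from untreated WT, with 95% intervals, for the genes around each locus in chromosomal order (equal spacing, not to scale); blue is WT LPS, red S534A LPS, and the genes of interest are in bold. Cd274 and Cd40 stand above their neighbours, Plgrkt beside Cd274 is higher by 0.56 and 0.96, and Tmem39a near Cd80 by 1.23 and 1.25.

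The genes for partner molecules of the 5 proteins did not pass in WT livers. Of 5 partner genes (Pdcd1 for PD-1, Cd28, Ctla4, Cd40lg for CD40 ligand, and Rgmb, which encodes a PD-L2 binding protein), 0 were called after LPS in WT livers and 0 between the genotypes, with a median difference of 0.08 for LPS. Pdcd1 read 5.57 ± 0.24, 5.77 ± 0.17 and 5.73 ± 0.04 (SD, n = 4) in the 3 groups, and Cd40lg 4.49 ± 0.11, 4.57 ± 0.18 and 4.51 ± 0.18. The interval of the WT LPS difference was -0.04 to 0.44 for Pdcd1 and -0.15 to 0.31 for Cd40lg. Pdcd1, Cd28, Ctla4 and Cd40lg read below 6.71, the median of all gene values, on every array. A change in these transcripts may therefore have gone unseen. Cd28 was called in S534A LPS against untreated WT only (0.17 ± 0.06, SE; adjusted p = 0.0494); that call was lost in 9 of 12 fits with 1 array left out (adjusted p up to 0.132), and without the 3 arrays with pancreas transcripts (0.18; 0.0954).

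Of 7 other B7 and butyrophilin family ligands 1 rose. Icosl, the ligand of the T cell co-stimulator ICOS, read 5.84, 6.09, 5.97 and 5.86 in untreated WT, 6.49, 6.23, 6.45 and 6.48 in WT LPS and 6.77, 6.54, 6.70 and 6.56 in S534A LPS livers. It rose by 0.47 ± 0.08 (SE; adjusted p = 0.000958) in WT and by 0.70 ± 0.08 (3.47e-05) in S534A livers. Its genotype groups did not overlap, but the difference of 0.23 ± 0.08 did not pass (adjusted p = 0.58). Cd276, Vtcn1, Vsir, Btn1a1, Btn2a2 and Btnl2 passed in none of the comparisons, with WT LPS differences from -0.22 for Cd276 to 0.20 for Btnl2. Of these, Vtcn1, Btn1a1, Btn2a2 and Btnl2 read below 6.71, the median of all gene values, on every array, where a change may go unseen.

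Of 7 genes for co-stimulatory ligands of the TNF superfamily and for HVEM, 3 rose in WT livers. Tnfrsf14, which encodes HVEM, a receptor that both stimulates and inhibits T cells depending on its partner, read 8.30 ± 0.08 (SD, n = 4) in untreated WT, 9.24 ± 0.05 in WT LPS and 9.27 ± 0.08 in S534A LPS livers. It rose 1.91-fold in WT (0.94 ± 0.06, SE; adjusted p = 1.75e-07) and 1.96-fold in S534A livers, and its genotype difference was 0.04 (95% interval -0.10 to 0.17). Tnfsf14, the HVEM ligand LIGHT, rose by 0.38 ± 0.10 (0.0159) and Tnfsf9, the 4-1BB ligand, by 0.22 ± 0.07 (0.0453) in WT livers. Without the 3 arrays with pancreas transcripts neither passed (0.33, adjusted p = 0.0916; 0.16, adjusted p = 0.257), and the Tnfsf9 call was lost in 10 of 12 fits with 1 array left out (adjusted p up to 0.122).

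Among 15 other co-inhibitory and T cell checkpoint genes 4 rose and 2 fell in WT livers. Cd47, the "do not eat me" ligand, rose by 0.73 ± 0.10 (SE; adjusted p = 0.000137), its receptor gene Sirpa by 0.39 ± 0.11 (0.0193), Cd200, another inhibitory ligand of myeloid cells, by 0.51 ± 0.10 (0.00221), and Lgals9, which encodes galectin-9, by 0.25 ± 0.07 (0.0166). Icos fell by 0.50 ± 0.10 (0.00308) and Ceacam1 by 0.25 ± 0.06 (0.011) on the log2 scale. Sirpa and Lgals9 were named after their values were seen, to complete the count. The Sirpa call was lost without replicate 2 of untreated WT or replicate 4 of WT LPS (up to 0.0568), and that of Lgals9 without untreated replicate 2 (0.052). Without the 3 arrays with pancreas transcripts, Sirpa (0.44; adjusted p = 0.0774) and Ceacam1 (-0.23; 0.0697) did not pass, at differences close to those with all arrays. Lag3, Tigit, Havcr2, Btla and Cd160, receptors of T and NK cells, did not pass in any comparison. Their group means all lay below 6.71, the median of all gene values, where a change may go unseen.

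Below CD40, 7 of 10 measured signalling genes rose in WT livers and 0 fell (median 0.40). Nfkb2, which encodes the p100 precursor of the alternative NF-kB pathway, rose 4.56-fold (2.19 ± 0.07, SE; adjusted p = 7.95e-11). Birc2 and Birc3, the ubiquitin ligases cIAP1 and cIAP2, rose 2.76-fold (6.47e-07) and 2.25-fold (4.32e-07), and the adaptor gene Traf5 1.41-fold (0.000283). Nfkb2 read 7.30 ± 0.08, 9.49 ± 0.07 and 9.57 ± 0.09 (SD, n = 4) in untreated WT, WT LPS and S534A LPS livers, so the LPS groups lay together. Traf5 read 6.97 ± 0.03, 7.46 ± 0.07 and 7.73 ± 0.15, and its genotype difference of 0.26 ± 0.07 did not pass (adjusted p = 0.291). None of the 10 passed between the genotypes.

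Of 12 measured genes of interferon-gamma signalling and PD-L1 regulation, 8 rose and 1 fell in WT livers (median 0.64). Jak2, the receptor kinase gene on the same stretch of chromosome 19 (chr19:29251803-29313095, 49.0 kb from Cd274), rose 2.36-fold (1.24 ± 0.11, SE; adjusted p = 4.41e-06). Stat3 rose 2.61-fold (2.23e-09), Jak1 1.44-fold (1.61e-05) and Irf2 2.23-fold (2.29e-05). Ifng itself read 6.07 ± 0.10, 6.22 ± 0.15 and 6.31 ± 0.21 (SD, n = 4) and did not pass (adjusted p = 0.316 in WT and 0.112 in S534A livers). It read below 6.71, the median of all gene values, on every array, where a change may go unseen. Without the 3 arrays with pancreas transcripts its S534A difference from untreated WT, 0.31, passed (0.0482). Cmtm6, whose product stabilises PD-L1 at the cell surface, differed by -0.07 ± 0.08 (0.572). Cmtm4, its relative, fell by 0.39 ± 0.12 (0.034); the call was lost without replicate 2 or 4 of untreated WT or replicate 1 or 2 of WT LPS (adjusted p up to 0.0956), and without the 3 arrays with pancreas transcripts (-0.32; 0.133).

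**Figure D4:**
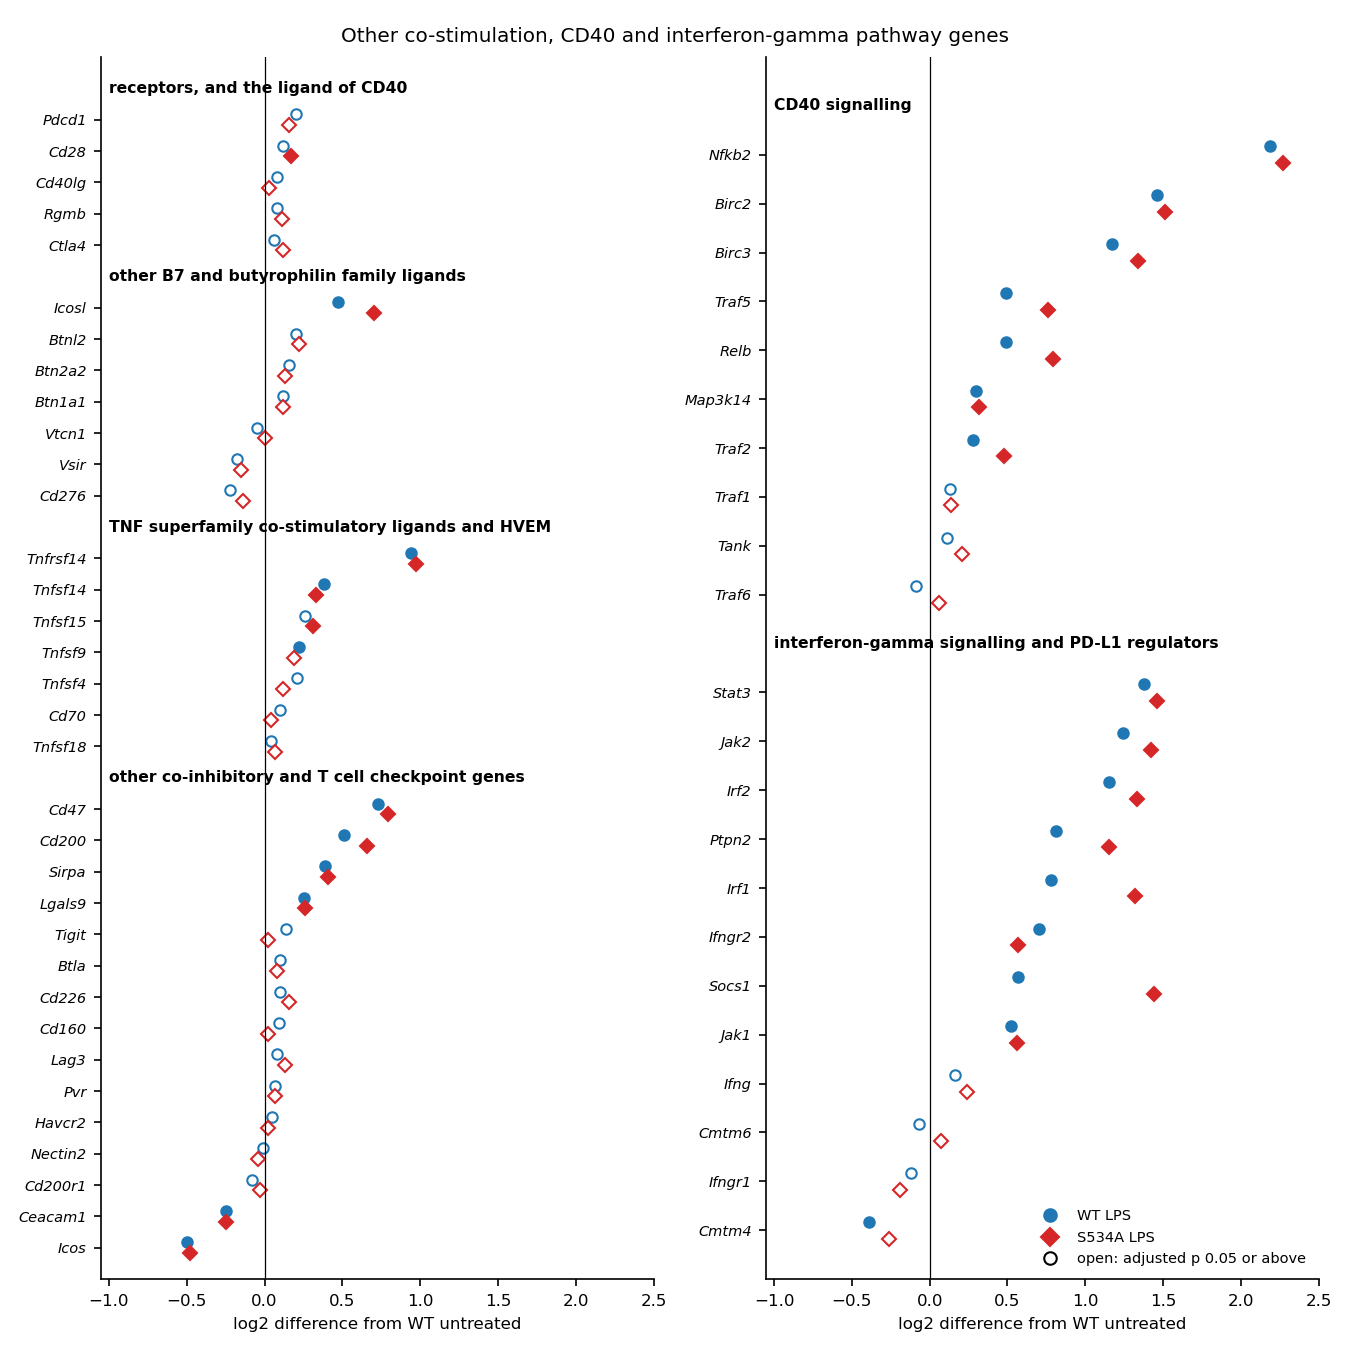
Log2 difference from untreated WT of 56 pathway genes in 6 groups; circles are WT LPS, diamonds S534A LPS, and open symbols have an adjusted p of 0.05 or above. Most of the filled symbols are in the CD40 and interferon-gamma groups on the right, up to 2.19 and 2.27 for Nfkb2, and Socs1 shows the widest gap between circle and diamond (0.57 and 1.44).

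One of the 56 pathway genes passed between the genotypes. Socs1, an inhibitor of JAK kinases, read 7.49, 7.69, 7.55 and 7.44 in WT LPS livers and 8.53, 8.32, 8.41 and 8.37 in S534A LPS livers, with no overlap. The difference was 0.86 ± 0.07 (SE; adjusted p = 0.000906). Irf1, a transcription factor gene of interferon signalling, was looked at after its values were seen, and its part in the Cd274 level was not tested. It read 9.98, 9.81, 9.81 and 9.86 in WT LPS and 10.37, 10.39, 10.49 and 10.36 in S534A LPS livers, without overlap, but the difference of 0.54 ± 0.11 did not pass (adjusted p = 0.0875), except with array weights (0.00541) or in a fit of only these 2 groups (0.0187). In all, 23 of the 56 rose and 3 fell in WT livers, where 9.34% of all genes rose and 15.6% fell, and their median difference was 0.16 beside 0.02 over all genes. In S534A LPS against untreated WT 24 were higher and 2 lower, where 11.0% and 16.0% of all genes were.

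By the size of the change on each array, the genes most like Cd274 were Slfn4, Mx2 and Slfn9. Each gene's log2 values were taken relative to its own untreated mean, and the root mean square distance to Cd274 over the 12 arrays was 0.20, 0.21 and 0.22 among 18610 genes ranked. Slfn4 was higher by 3.77 in WT LPS and by 4.48 in S534A LPS livers than in untreated WT, and Mx2, an antiviral dynamin-like GTPase gene, by 3.92 and 4.74. The Schlafen genes have near-identical relatives, and signal from these was not separated. For Cd40 the nearest were Hdc, the histidine decarboxylase gene (0.13), Trex1, a DNA exonuclease gene (0.13), and Apaf1, the apoptosome scaffold gene (0.15). Only 5 genes lay within 0.1 of the smallest distance for Cd274 and 45 for Cd40. For Cd80 (Ctsj, Rpusd2 and Exosc10 nearest) there were 555, for Cd86 (Itga4, Sf3b3 and Vim) 391 and for Pdcd1lg2 (Fgf14, Olfr1424 and Kcnj6) 5142. The small differences of these 3 genes were thus close to those of many others.

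Markers of several cell types that can carry these proteins moved too. In whole liver, more cells of a type and more RNA per cell cannot be told apart. Over all genes, 9.34% rose and 15.6% fell in WT livers after LPS, and 0.166% were higher in S534A than in WT LPS livers. All 8 neutrophil markers rose in WT livers after LPS, and their summed linear signal lay at 419 to 443 in untreated WT, 1131 to 1487 in WT LPS and 1665 to 2064 in S534A LPS livers. That sum separated the 3 groups as Cd274 and Cd40 did, and 2 of the 8, Retnlg (0.68 ± 0.10, SE; adjusted p = 0.0158) and S100a9 (0.52 ± 0.09; 0.0385), passed as higher in S534A than in WT LPS livers. Without the 3 arrays with pancreas transcripts neither passed (Retnlg 0.63, adjusted p = 0.296; S100a9 0.55, adjusted p = 0.452). With single arrays left out the Retnlg call was lost in 2 of 12 fits (replicate 4 of S534A LPS or replicate 3 of WT LPS; adjusted p up to 0.0746) and that of S100a9 in 8 of 12 (replicate 2 of untreated WT, each S534A LPS array, or replicates 2, 3 or 4 of WT LPS; up to 0.173). Of 5 monocyte markers 3 rose (Plac8, F13a1 and Ccr2) and the sums overlapped, at 7504 to 8576, 7680 to 8689 and 8385 to 8730. Fn1, flat at mean log2 values of 12.91, 12.91 and 12.92, made up most of each sum. Plac8, F13a1 and Ccr2 each read higher on every LPS array than on any untreated one. Chil3 passed only in S534A LPS against untreated WT (0.41; adjusted p = 0.0144). Of 8 Kupffer cell markers 1 rose (Marco) and 5 fell (Clec4f, Vsig4, Cd5l, Csf1r and Cd163), with sums of 5307 to 7201, 2831 to 4585 and 3575 to 4121. The part of these cells in the levels of Cd274 and Cd40 was not tested.

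In WT LPS against untreated WT, of 10 dendritic cell markers 0 rose and 1 fell (Clec9a), with sums of 643 to 710, 623 to 725 and 656 to 702 in untreated WT, WT LPS and S534A LPS livers. Of 5 B cell markers 1 fell (Cd79b; sums 395 to 445, 325 to 362 and 333 to 405), and of 8 T and NK cell markers 1 rose (Ncr1; 464 to 492, 466 to 523 and 476 to 526). Of 6 sinusoidal endothelial markers 1 rose (Lyve1) and 3 fell (Kdr, Stab2 and Clec4g; 5414 to 6344, 3978 to 5472 and 4534 to 4994). Of 5 stellate cell markers 3 fell (Lrat, Reln and Pdgfrb; 2076 to 2334, 1305 to 1713 and 1501 to 1940). Of 4 cholangiocyte markers 0 passed in WT livers, and Sox9 was higher in S534A LPS than in untreated WT livers (0.54; adjusted p = 0.0217; sums 458 to 682, 663 to 715 and 615 to 817), and of 5 hepatocyte markers 1 fell (Ttr; 68545 to 71122, 67505 to 69034 and 64626 to 68259). Cd3d (0.25; adjusted p = 0.0415), Cd4 (-0.31; 0.0364) and Pecam1 (-0.33; 0.00754) were, like Sox9, called in S534A LPS against untreated WT only. None of the markers of these 7 cell types passed between the genotypes. The 7 exocrine pancreas markers passed in none of the 3 comparisons, but single LPS livers stood out, with sums of 369 to 491 in untreated WT, 438 to 3806 in WT LPS and 419 to 7179 in S534A LPS livers. RMA values have no true 0, so none of these markers could be listed as absent.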

How the data were processed

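RNA of each of 12 liver samples was hybridised to 1 Affymetrix GeneChip WT array. The authors deposited log2 values per probe set, made with RMA per the submitters' processing notes, which give no version or settings here. RMA as usually run makes array distributions near equal, so a change in total RNA cannot be seen, and it compresses differences of dim probe sets.

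Of 35556 probe sets, 21789 carried 1 gene symbol, 1621 several and 12146 none; only the first kind was used. Of these, 21698 probe sets had an Entrez identifier that matched a GRCm38.p6 gene and took its symbol, and 91 kept the annotation's symbol. The probe set with the highest mean stood for a gene (19938 genes). Pathway and marker lists held 59 and 74 symbols; Traf3, Chuk, Ly6c2 and Pnlip had no probe set of their own symbol and were not analysed here, and some other listed genes are not reported here.

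Differences were fitted by limma (version 3.58.1, R 4.3.3) over all 12 arrays (9 residual, 3.54 prior degrees of freedom; Benjamini-Hochberg over all genes, two-sided, called under 0.05, no filter), tested on simulated data. The 5 genes, the lists and the 3 arrays named for pancreas transcripts were chosen with earlier results of these data known. Named pathway genes were up to 4 with the smallest p among those called in WT LPS against untreated, plus those called between the genotypes; named neighbours were those called in any comparison; for likeness, the 3 nearest genes, without predicted ones; and Rela. Irf1, Ifng, Cd28, Sirpa, Lgals9 and Cmtm4 were added after their values were seen. Alternatives left out each array, filtered dim genes, averaged probe sets, or changed eBayes settings, array weights, normalisation, centring, the groups fitted, a replicate block or the threshold.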

Additional observations from a re-analysis of the deposited data

Results flagged for a closer look

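In 7 of 153 groups of 4 arrays checked (51 named genes in 3 groups each), 1 array lay apart from the other 3 by more than Dixon's 95% critical value, given as the gap to the nearest array over the group's range; chance flags about 1 in 20. One concerns the genes described first: Cd80 read 6.66 in WT LPS replicate 3 and 6.46 in the nearest array (0.98). Among pathway genes and neighbours, Icosl read 6.23 in WT LPS replicate 2 against 6.45 (0.836), Tnfrsf14 9.17 in WT LPS replicate 4 against 9.25 (0.941), and Plgrkt 6.60 in untreated replicate 2 against 6.96 (0.872). Among the likeness genes, Mx2 read 6.08 in untreated replicate 4 against 5.61 (0.849), Hdc 6.95 in untreated replicate 2 against 7.28 (0.894), and Sf3b3 9.55 in untreated replicate 3 against 9.74 (0.897).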

How the results depend on the processing

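No difference of the 5 genes that was called changed sign in any alternative run. The 5 genes were chosen on these same arrays, so the runs lend their differences no support. Of the 5 genes, those called after LPS in WT or S534A livers numbered 2 rather than 4 with the filter on dim genes, because the filter removes Cd80, Cd86 and Pdcd1lg2. They numbered 3 in WT without the 3 arrays with pancreas transcripts (Cd80 lost), and 3 in each LPS group against untreated WT at an adjusted p under 0.01. Between the genotypes 1 rather than 2 was called (Cd40 lost) with eBayes trend and robust settings, median centring, only the 2 groups compared, the replicate block or an adjusted p under 0.01; 1 to 2 with single arrays left out; and 0 without the 3 arrays with pancreas transcripts, where Cd40 read 0.35. With the mean of its probe sets Cd80 differed by 0.48 in WT and 0.52 in S534A livers from untreated WT, and repeated quantile normalisation put Pdcd1lg2 at 0.03 in the latter. Over all genes, WT LPS against untreated called 3227 without the 3 arrays and 3143 at an adjusted p under 0.01, in place of 4983. The genotype comparison called 476 with array weights (72.3% of them higher), 39 with repeated quantile normalisation (82.1% higher), 17 with the replicate block, 1 without the 3 arrays, 9 at 0.01 and 79 at 0.1, in place of 34 (97.1% higher), and 9 to 121 with single arrays left out. Pathway genes called there numbered 3 with array weights and 2 with only the 2 groups compared or at 0.1, in place of 1. The causes were not tested. Replicate numbers share only a number: same-numbered arrays of the 2 LPS groups deviated from their group means with correlations of -0.23 to 0.06. With the block, named genes that lost their call were Tnfsf9 in WT LPS against untreated WT (adjusted p = 0.0874) and, in S534A LPS against untreated WT, Tnfsf14 (0.0617) and Cd28 (0.0892); between the genotypes the marker S100a9 lost its call (0.167). S100a9 also missed the threshold with eBayes trend and robust settings (0.0532) and repeated quantile normalisation (0.0668), alternatives run for the markers after seeing the data. In WT LPS against untreated WT, array weights lost the calls of Tnfsf14 (adjusted p = 0.0539), Tnfsf9 (0.0872), Lgals9 (0.0517) and Cmtm4 (0.201). A fit of only the 2 groups lost those of Tnfsf9 (0.116), Plgrkt (0.0694), Mmp9 (0.0898), Lgals9 (0.057) and Cmtm4 (0.0925). Cd28 lost its call in S534A LPS against untreated WT with both (0.0973 and 0.0777). Dim signal limits Pdcd1lg2, Cd80 and Cd86, which read below the median of all gene values on most arrays.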
